A study of Capra hircus with 3 samples.

Results

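The genes described here are those for the proteins of the cytosolic ribosome, measured in single cells of goat liver. They were chosen by name: every row of the count tables whose symbol is RPL or RPS followed by digits, with an optional final A, L, X or Y, together with RPLP0, RPLP1, RPLP2 and RPSA where present, and without the RPS6K kinases. The rule found 32 of 27271 genes, 14 for the large subunit and 18 for the small subunit. Of 79 RPL and RPS names on a standard list of the mammalian ribosome, 29 had a row under their symbol (12 large, 17 small), and the other 50 were not analysed here. The remaining 3 genes, RPS27L, RPL3L and RPL10L, are relatives of standard members. A further 9958 rows carry an identifier without a symbol and hold 13.0% of all UMIs (unique molecular identifiers, each marking 1 captured RNA molecule), so the share given below covers the named genes and not the whole ribosome.

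Cytosolic ribosomal proteins are assembled with ribosomal RNA in the nucleolus into a small subunit, which decodes the mRNA, and a large subunit, which joins the amino acids. Their mRNAs carry a 5′ terminal oligopyrimidine (TOP) motif, through which the growth kinase mTORC1 controls their translation together, and they are read in every cell type. In liver, hepatocytes make most plasma proteins and so depend heavily on translation, while resting lymphocytes are small cells with little cytoplasm.

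The study compared 3 libraries, each made from the pooled livers of 5 female goats aged 3 to 4 years. NASH goats had non-alcoholic steatohepatitis and ate the HRDS diet, NASH-T goats belonged to the steatohepatitis tolerance group and ate the same HRDS diet, and healthy Con goats ate the LRDS diet. Livers were digested with trypsin to free the cells. Each group has 1 library and no replicate, so goat, pool, handling and group cannot be told apart. No test between groups is possible, and every interval below is a 95% interval of counting error only that takes UMIs as independent.

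After filtering, 8389 NASH, 8913 NASH-T and 7198 Con cells remained, with 29038767, 27001724 and 23744183 UMIs in that order and medians of 2472, 2127 and 2393 UMIs per cell. The libraries shared 17 to 23 cell barcodes by pairs, at most 0.274% of a library. Cells were grouped into 25 clusters without using the ribosomal protein genes, and 8 marker-named classes had at least 50 cells in every library. ALB, the albumin gene, stood at 4323, 5166 and 3807 CPM (a gene's UMIs in every 1000000 UMIs of the cells in question) in hepatocyte-like cells of NASH, NASH-T and Con. It was present in every other class too, from 975 to 2674 CPM. NK cell-like cells also held transcripts of CD3G, a part of the T cell receptor complex, at 289 CPM in NASH, 301 in NASH-T and 171 in Con. T cell-like cells had 300.5, 291 and 249.9 CPM of it.

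The 32 genes held 150563 UMIs, or 0.189% of all UMIs of kept cells. Every one of the 29 standard members had at least 1000 UMIs, and they spanned a 7.30-fold range of counts, which are not scaled to gene length and so give no order of expression. RPS18, of the small subunit head, had 89.6 CPM over all NASH cells, 119 in NASH-T and 98.4 in Con. RPS7, also of the small subunit, had 75.1, 109 and 86.9 CPM in the same libraries. Both genes were highest in NASH-T and lowest in NASH. RPLP2, an acidic protein of the large subunit stalk that recruits translation factors, followed the same order with 64.3 CPM in NASH, 108 in NASH-T and 86.6 in Con. RPS28 did so too, with 60.3 CPM in NASH, 111 in NASH-T and 79.1 in Con.

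A gene is called higher or lower here at a ratio of at least 1.2 either way with an interval that excludes 1, among genes with at least 50 UMIs over both libraries. Genes with few UMIs have wide intervals and are called less readily. The shares of all genes called were not matched to the counts of the members, here or below. Of 30 members that could be tested over all cells, 27 were higher in NASH-T than in Con and 0 lower, where 13.2% of all genes tested were called higher and 15.1% lower. NASH over Con, 0 were higher and 19 lower, where 11.3% of genes were called higher and 29.5% lower. NASH-T over NASH, 29 were higher and 0 lower, where 28% of genes were called higher and 13.5% lower. These values mix cell classes whose numbers differed between libraries, so the classes are given one by one. Counts given below for fewer cells or for another clustering have no share of all genes from that setting beside them. Such counts show only how the number of members called depends on the setting.

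The 3 genes outside the standard list had few UMIs. RPS27L, a close relative of RPS27 that p53 induces in human cells, had 11.7 CPM in NASH, 9.96 in NASH-T and 9.98 in Con. RPL3L, which replaces RPL3 in striated muscle of mouse and human, had 13 UMIs in NASH, 5 in NASH-T and 4 in Con. Of these, 9 in NASH, 5 in NASH-T and 4 in Con lay in hepatocyte-like cells. RPL10L, a testis gene in mouse and human, had 0 UMIs in all 3 libraries. With reads of such relatives, the division of counts between near-identical copies is uncertain.

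Among the 8 classes, the ribosomal protein share of UMIs was lowest in hepatocyte-like cells and highest in B cell-like cells in all 3 libraries. This order is that of whole classes, and it depended on depth, the UMIs per cell. Hepatocyte-like cells were the deepest, with medians of 3866, 4033 and 4211 UMIs in NASH, NASH-T and Con. In Con cells of 1000 to under 2000 UMIs their share was 0.298%, above the 0.280% of B cell-like cells. At that depth B cell-like cells stayed above them in NASH (0.309% against 0.222%) and NASH-T (0.417% against 0.341%). In hepatocyte-like cells as a whole the share was 0.127% of UMIs in NASH (4067 cells), 0.195% in NASH-T (3125 cells) and 0.161% in Con (2876 cells). In macrophage-like cells it was 0.161% in NASH, 0.202% in NASH-T and 0.185% in Con. These were the classes with the lowest shares, and their intervals did not overlap within any library, although in NASH-T they nearly touched. Without cells of at least 2% share, hepatocyte-like and macrophage-like shares of NASH-T were 0.192% and 0.193%. Those of NASH were 0.127% and 0.158%, and those of Con 0.160% and 0.171%. At 2000 to under 4000 UMIs the order was turned round in every library, such as 0.239% hepatocyte-like against 0.208% macrophage-like in NASH-T. So it was at 1000 to under 2000 and 4000 to under 8000 UMIs, but not at 500 to under 1000. Over whole classes, stellate or fibroblast-like cells came next, with 0.185% in NASH, 0.330% in NASH-T and 0.194% in Con.

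Lymphoid and endothelial classes stood above these. T cell-like cells had 0.254% in NASH, 0.349% in NASH-T and 0.279% in Con. Gamma-delta or type 17 T cell-like cells had 0.242%, 0.354% and 0.262%, and NK cell-like cells 0.273%, 0.382% and 0.252%, in NASH, NASH-T and Con. The T, NK and gamma-delta classes changed places between libraries. Endothelial-like cells had 0.257% in NASH, 0.363% in NASH-T and 0.230% in Con. B cell-like cells had 0.312% (interval 0.283 to 0.344) in NASH, 0.442% (0.419 to 0.467) in NASH-T and 0.291% (0.268 to 0.315) in Con. The B cell-like interval stood clear of the next class in NASH-T, but 2 of its 191 cells carried 15.6% of its ribosomal protein UMIs there, and without cells of at least 2% share it was 0.379%, against 0.358% in NK cell-like cells. It overlapped that of NK cell-like cells in NASH and of T cell-like cells in Con. Plasma cell-like cells, which secrete antibodies, stood higher still, at 0.382% in NASH (48 cells), 0.563% in NASH-T (161 cells) and 0.367% in Con (115 cells). With under 50 cells in NASH they entered no comparison.

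**Figure D1:**
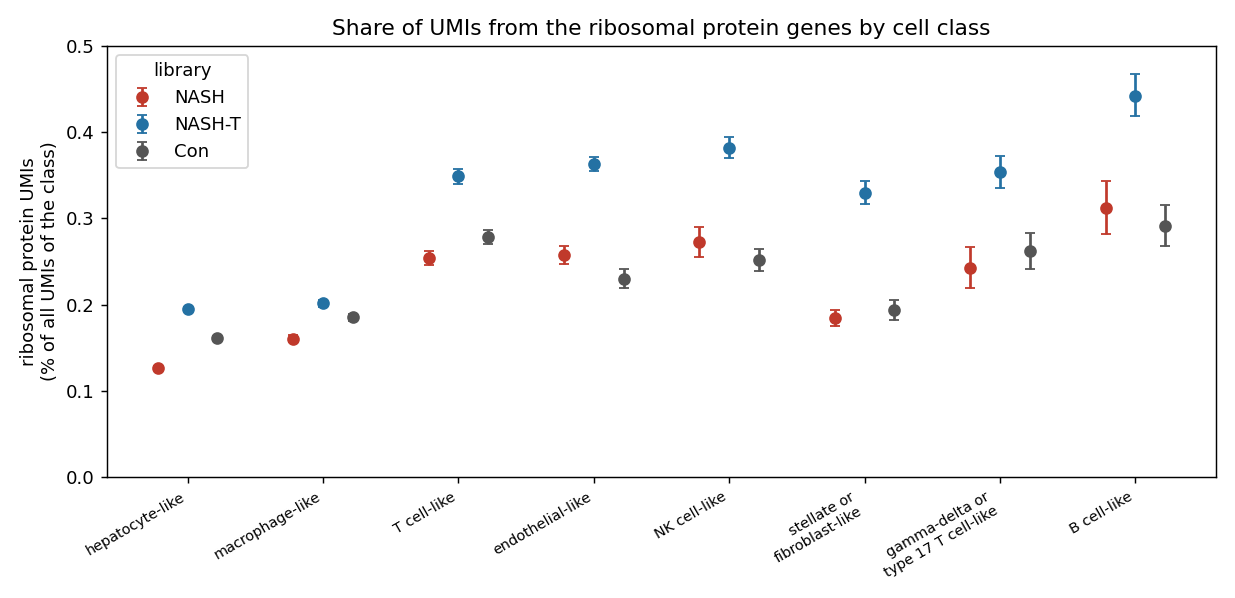
The y axis gives the ribosomal protein genes' share of all UMIs (percent) in each of 8 cell classes on the x axis, with a point for each library (NASH, NASH-T, Con from left to right) and 95% counting intervals. NASH-T is the highest point in all 8 classes, from 0.195% in hepatocyte-like to 0.442% in B cell-like cells.

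Between libraries, the NASH-T share exceeded the Con share in 8 of 8 classes, by 1.09-fold in macrophage-like cells to 1.70-fold in stellate or fibroblast-like cells, with every interval above 1. It also exceeded the NASH share in 8 of 8 classes, by 1.25-fold in macrophage-like to 1.78-fold in stellate or fibroblast-like cells. Both ratios contain the NASH-T library, so they are not separate evidence. Between NASH and Con there was no common direction. The NASH share was lower in hepatocyte-like cells (ratio 0.787, interval 0.773 to 0.802), macrophage-like cells (0.868) and T cell-like cells (0.913), and higher in endothelial-like cells (1.12). In the other 4 classes the interval held 1. The pattern was close to this within single clusters of at least 50 cells: NASH-T stood above Con in 19 of 19 clusters and above NASH in 18 of 18, and NASH stood above Con in 7 of 18.

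The higher endothelial-like share in NASH than in Con was uneven over depth. In cells of 4000 to under 8000 UMIs it was 0.358% in 18 NASH cells and 0.137% in 15 Con cells. The ratio of NASH over Con was 1.06 at 500 to under 1000 UMIs and 0.896 at 1000 to under 2000. At 2000 to under 4000 UMIs it was 1.07. The endothelial-like ratio also depended on how cells were grouped. With the ribosomal protein genes used in the clustering, the endothelial-like ratio turned to 0.836 although the class kept about the same size (554 NASH and 374 Con cells, against 549 and 362). With each library clustered alone, 126 NASH cells carried the endothelial name and the ratio was 1.70. NASH-T stood above Con in all classes compared under both of these groupings. The T and NK names moved to other cells with the ribosomal protein genes in the clustering: 335 NASH, 518 NASH-T and 528 Con cells were then T cell-like, in place of 1233, 1466 and 1260, and 1175, 1648 and 1133 were NK cell-like, in place of 279, 701 and 401. They did so with doublets kept too, where 342, 528 and 523 cells were T cell-like.

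The share was carried in part by rare cells in which ribosomal proteins made up at least 2% of UMIs. This line was chosen after the cells had been seen. There were 10 such cells among 8389 in NASH, 56 among 8913 in NASH-T and 14 among 7198 in Con, and the highest single share was 7.29% in NASH, 13.4% in NASH-T and 10.9% in Con. They were found in 16 of the 25 clusters, and 30 of the 32 genes had a UMI in them. Their median depth was 709 UMIs in NASH, 1082 in NASH-T and 729 in Con, against 2474, 2136 and 2396 in the remaining cells of the same libraries. Some were deeper than the rest of their class: the 15 endothelial-like ones of NASH-T had a median of 2170 UMIs, the 2 B cell-like ones of NASH-T 1947 and the 1 stellate or fibroblast-like one of NASH 3372. The mitochondrially encoded share of high-share cells of all classes was 1.70% in NASH, 1.53% in NASH-T and 2.89% in Con, against 0.131%, 0.302% and 0.160% in the remaining cells. The part of depth and mitochondrial RNA in these high shares was not tested.

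The high-share cells weighed most in endothelial-like, stellate or fibroblast-like and B cell-like cells of NASH-T. Among endothelial-like cells there were 2 of 549 in NASH, 15 of 1015 in NASH-T and 0 of 362 in Con, where a count of 0 allows a share of up to 0.829%. Those of NASH-T carried 20.2% of the ribosomal protein UMIs of their class. Without high-share cells the endothelial-like share was 0.252% in NASH, 0.295% in NASH-T and 0.230% in Con, and the NASH-T over Con ratio was 1.28 in place of 1.58. In stellate or fibroblast-like cells the same ratio was 1.45 without 4 NASH-T cells, in place of 1.70, and in B cell-like cells it was 1.30 without 2 NASH-T cells, in place of 1.52. NASH-T still stood above Con and above NASH in 8 of 8 classes, with ratios of 1.13 to 1.45 and 1.17 to 1.61. Stellate or fibroblast-like cells of NASH against Con moved to 0.904, with an interval of 0.835 to 0.978.

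In macrophage-like cells all high-share cells but 1 of NASH-T sat in 1 cluster, and they weighed most on Con. Of 264 NASH, 175 NASH-T and 219 Con cells in this cluster, 3, 8 and 11 in the same order were high-share cells, and they carried 10.0%, 23.7% and 38.1% of its ribosomal protein UMIs. Its share was 0.176% in NASH, 0.302% in NASH-T and 0.291% in Con. Without this cluster, the macrophage-like ratio of NASH over Con was 0.933 and that of NASH-T over Con 1.13, against 0.868 and 1.09 with it.

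**Figure D2:**
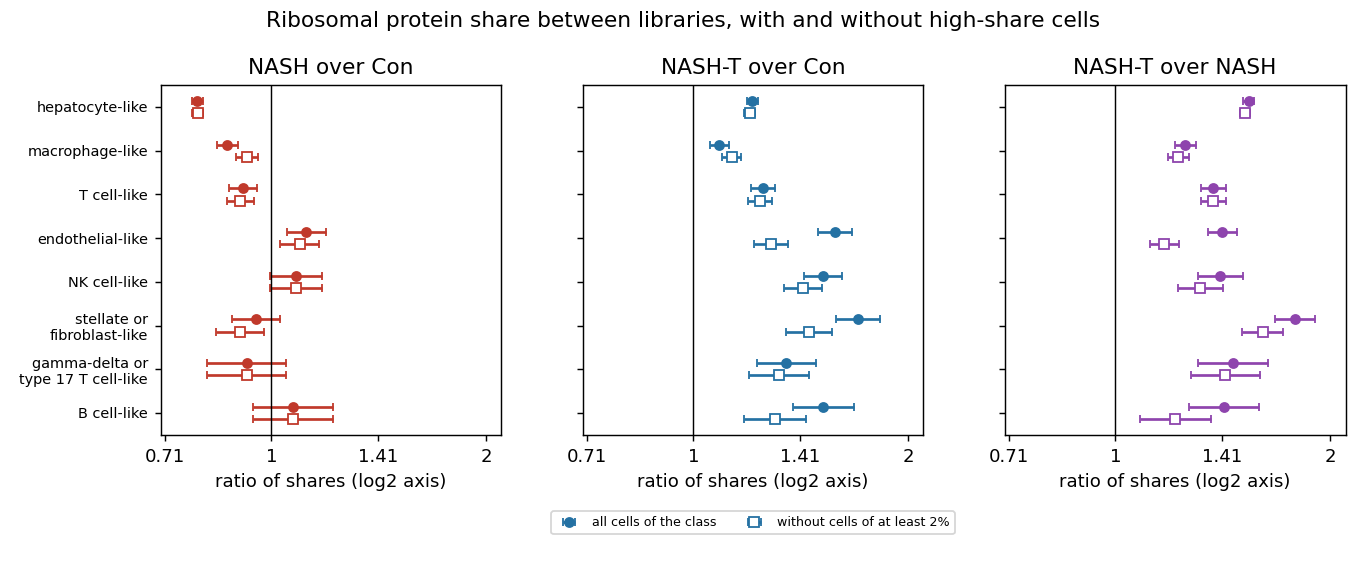
Each panel gives, for 8 cell classes, the ratio of ribosomal protein shares between the named libraries (log2 axis) with 95% counting intervals, filled for all cells and open without cells whose ribosomal protein share is at least 2%. NASH-T over Con and NASH-T over NASH lie above 1 in every class either way, and NASH over Con runs from 0.787 in hepatocyte-like to 1.12 in endothelial-like cells.

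Hepatocyte-like cells held the most member UMIs, and there 30 of the 32 genes reached 50 UMIs over the libraries compared. NASH-T over Con, 17 of 30 members were higher and 0 lower, where 10.3% of 11376 genes were called higher and 22.2% lower, and the members' median log2 ratio was 0.31 against -0.10 for all genes tested. NASH over Con, 0 of 30 members were higher and 19 lower, where 11.3% of 11590 genes were called higher and 25.8% lower, with a median log2 ratio of -0.34 against -0.11 for all genes. NASH-T over NASH, 29 of 30 were higher and 0 lower, where 14.4% of 11578 genes were called higher and 13.3% lower, with a median of 0.64 against -0.00. At a ratio of 1.5, 2 members remained lower in NASH than in Con (RPS3 and RPLP0), where 11% of genes were called lower. At that ratio 0 were higher in NASH-T than in Con, where 4.69% of genes were called higher. The differences from Con were thus broad over members and small in size.

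Among large subunit members, RPL21 had the largest NASH-T over Con ratio. It had 43.4 CPM in hepatocyte-like cells of NASH, 66.9 in NASH-T and 46.8 in Con, a ratio of 1.43 (interval 1.30 to 1.58). RPL31, which lies by the exit of the peptide tunnel, had 25.1 CPM in NASH, 49.5 in NASH-T and 37.0 in Con. It was 1.34-fold higher in NASH-T and at a ratio of 0.678 in NASH, each against Con. RPL26, a neighbour of the tunnel exit too, had 22.0 CPM in NASH and 41.6 in NASH-T, and the NASH-T over NASH ratio was 1.89. RPLP0, the base of the stalk, had 40.0 CPM in NASH, 65.5 in NASH-T and 60.3 in Con, so that it was among the lowest in NASH (ratio 0.663 over Con) but close to Con in NASH-T. Of the 12 large subunit members tested, 9 were higher in NASH-T than in Con and 9 lower in NASH than in Con.

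Among small subunit members, RPS3, which lines the mRNA entry channel, had the lowest NASH over Con ratio, 0.658 (interval 0.536 to 0.807), on 9.27 CPM in NASH and 14.1 in Con. RPS28 had 50.5 CPM in NASH, 86.4 in NASH-T and 67.6 in Con. RPS18, with 88.7, 118 and 102 CPM in NASH, NASH-T and Con, was not called against Con in either comparison. Of the 18 small subunit members tested, 8 were higher in NASH-T than in Con and 10 lower in NASH than in Con. RPS27L was the single member whose order was turned round: it had 13.7 CPM in NASH, 11.9 in NASH-T and 12.7 in Con, and none of its 3 ratios was called.

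**Figure D3:**
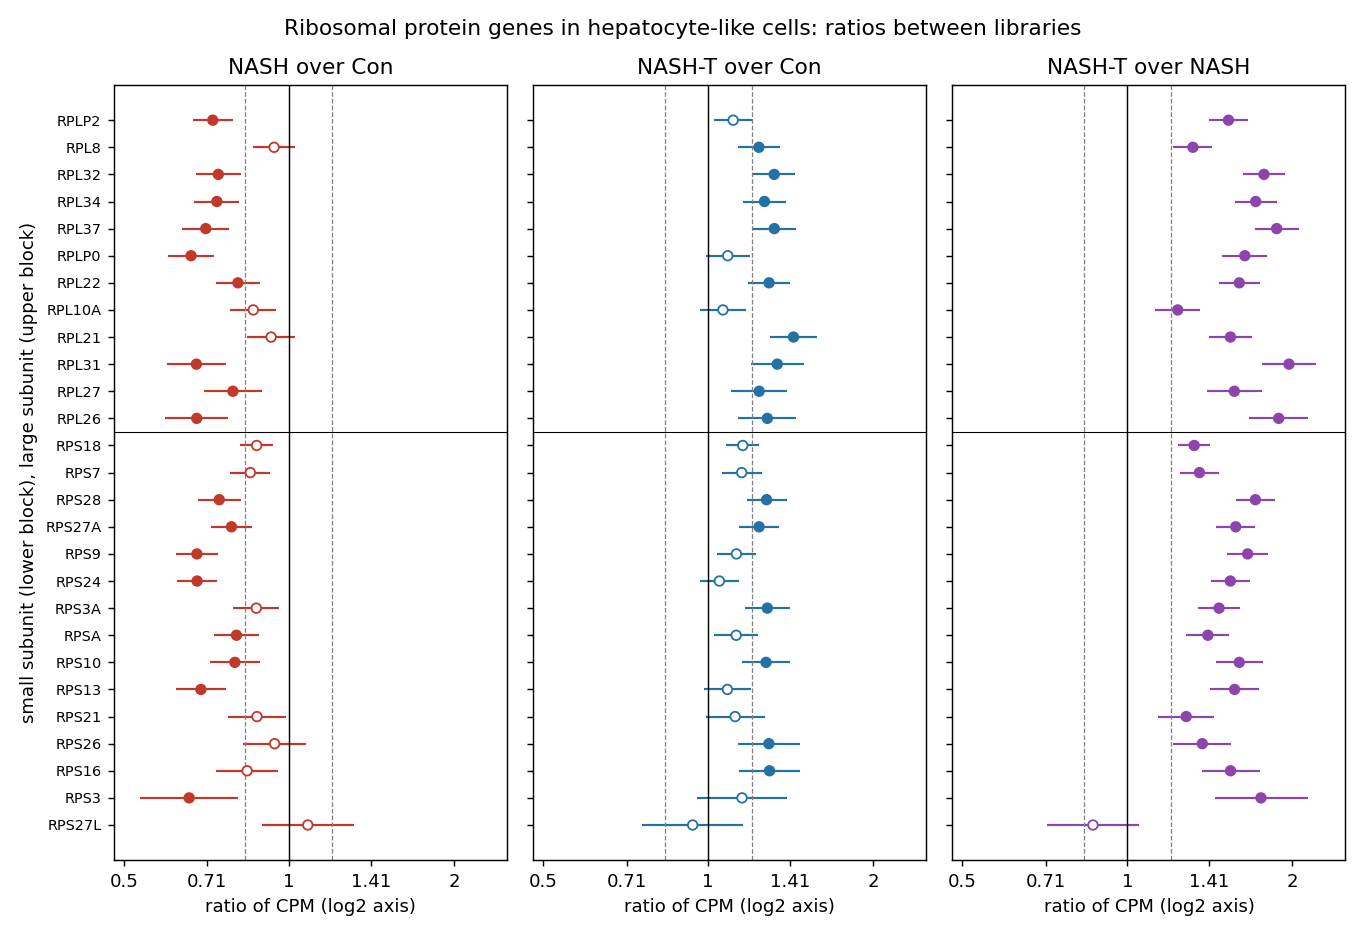
Each panel gives the ratio of CPM in hepatocyte-like cells between the named libraries (log2 axis) for 27 ribosomal protein genes, with 95% counting intervals; filled points are called at 1.2-fold, and dashed lines mark that ratio. NASH over Con lies below 1 for every gene but RPS27L, and NASH-T over Con above 1 for every gene but RPS27L.

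Hepatocyte-like clusters were divided between libraries, which bears on these ratios. NASH cells lay mostly in 2 clusters of 1730 and 1039 NASH cells, which held 67 and 25 NASH-T cells and 13 and 3 Con cells. The 2 clusters that were well filled in all libraries gave NASH over Con ratios of the share of 0.798 and 0.739, and NASH-T over Con ratios of 1.10 and 1.26. A further cluster of shallow cells, with medians of 836 UMIs in NASH, 947 in NASH-T and 943 in Con, ran the other way between NASH and Con: its share was 0.448% in NASH, 0.599% in NASH-T and 0.401% in Con. Without it the hepatocyte-like ratio was 0.796 for NASH over Con and 1.19 for NASH-T over Con.

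In macrophage-like cells the members differed less from Con. Of 29 tested, 6 were higher in NASH-T than in Con and 0 lower, where 7.58% of genes were called higher and 11.8% lower. Without high-share cells 10 were higher. Their median log2 ratio was 0.08 against -0.03 for all genes. NASH over Con, 0 were higher and 11 lower, where 7.51% of genes were called higher and 9.68% lower; without the cluster named above, 5 were lower. RPS24 had 68.4 CPM in NASH-T and 50.6 in Con, and RPL26 had 53.3 in NASH-T and 40.3 in Con, the largest NASH-T over Con ratios in this class (1.35 and 1.32). RPS3 had 11.5 CPM in NASH and 20.1 in Con (ratio 0.570), and RPL32 had 53.8 in NASH and 78.9 in Con (0.681). NASH-T over NASH, 16 were higher and 0 lower, where 8.67% were called higher and 9.75% lower, led by RPL26, which had 53.3 CPM in NASH-T and 28.1 in NASH.

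In T cell-like cells, 10 of 29 members were higher in NASH-T than in Con and 0 lower, where 7.2% of genes were called higher and 7.68% lower, and the median log2 ratio was 0.24 against -0.00. Among these, RPL31 had 117 CPM in NASH-T and 72.3 in Con, a ratio of 1.62. NASH over Con, 3 of 29 were lower (RPS28, RPS3A and RPLP2, with ratios of 0.729, 0.778 and 0.786) and 0 higher, where 6.91% of genes were called higher and 7.98% lower. RPS10 had the largest ratio of NASH-T over NASH, 1.68, at 120 CPM in NASH-T and 71.4 in NASH. In that comparison 18 of 29 were higher and 0 lower, where 8.13% of genes were called higher and 6.62% lower.

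Endothelial-like cells had 21 of 29 members higher in NASH-T than in Con and 0 lower, where 10.1% of genes were called higher and 10.4% lower. RPL26 and RPS10 both had 128 CPM in NASH-T and 57.9 in Con (ratio 2.22), and RPL34 had 148 in NASH-T and 67.8 in Con (2.19). Without high-share cells 9 members were higher in place of 21, and with the members used in the clustering 7 were. The shares of all genes called in these settings are not given. NASH over Con, 4 of 28 were higher and 1 lower, where 8.17% of genes were called higher and 10% lower. RPL34 had 110 CPM in NASH and 67.8 in Con (1.63), while RPS24 had 81.1 in NASH and 121 in Con (0.667). With the other clustering, 0 were higher and 5 lower. NASH-T over NASH, 22 of 29 were higher and 0 lower, where 9.08% were called higher and 7.91% lower, and RPS3 led with 45.0 CPM in NASH-T and 16.6 in NASH. Without high-share cells 8 were higher and 1 lower.

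NK cell-like cells had 19 of 29 members higher in NASH-T than in Con, and 0 lower, where 7.58% of genes were called higher and 6.87% lower. Without high-share cells 11 were higher. RPS21 had 74.7 CPM in NASH-T and 32.3 in Con (ratio 2.32), and RPL37 had 187 in NASH-T and 96.8 in Con (1.94). NASH over Con, 2 of 26 tested were higher, RPS9 among them (1.55), and 0 lower, where 7.51% were called higher and 6.47% lower. NASH-T over NASH, 13 of 29 were higher and 0 lower, where 6.34% of genes were called each way, led by RPL37, which had 187 CPM in NASH-T and 86.0 in NASH; without high-share cells 7 were higher.

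In stellate or fibroblast-like cells 23 of 28 members were higher in NASH-T than in Con and 0 lower, where 9.21% of genes were called higher and 7.76% lower, with a median log2 ratio of 0.79 against 0.02. NASH-T over NASH, 22 of 28 were higher and 0 lower, where 8.14% of genes were called higher and 11.5% lower. NASH over Con, 2 of 26 were higher and 3 lower, where 13.1% were called higher and 8.43% lower. The gamma-delta or type 17 T cell-like and B cell-like classes were too shallow for most members, with 18 and 23 tested between NASH-T and Con, of which 3 and 8 were higher and 0 lower, where 7.78% and 6.59% of genes were called higher and 7.71% and 7.02% lower. Over classes, RPL31 was called higher in NASH-T than in Con in 7 of the 7 classes that could be tested, and RPL34 in 7 of 8.

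The order of the members by counts was closer between libraries, read over all cells, than between some classes, which hold fewer UMIs. Over all cells, the 29 standard members kept nearly the same order of counts in each pair of libraries, with Spearman correlations of 0.92 to 0.96 over genes; these are a description, since genes are not independent and the libraries share their chemistry. Between pairs of the 5 largest classes within a library the correlations ran from 0.67, for hepatocyte-like with endothelial-like cells of NASH, to 0.94, for T cell-like with NK cell-like cells of NASH-T. The hepatocyte-like with endothelial-like pair stood at 0.80 in NASH-T and 0.89 in Con. RPS3, for one, had 16 UMIs in endothelial-like cells of NASH and 353 over all NASH cells. The part of counting error in the lower correlations was not tested. In hepatocyte-like cells, 11 of 30 members took a larger part of the ribosomal protein UMIs than in the other classes in every library, and 14 a smaller part. Of 224 pairs of member and class that could be read, 1 passed a 1.5-fold difference from the other classes in the same direction in every library. That was RPS27L in hepatocyte-like cells, which made up 1.08% of ribosomal protein UMIs in NASH, 0.611% in NASH-T and 0.788% in Con, against 0.355%, 0.253% and 0.247% in the other classes of those libraries. Its CPM set hepatocyte-like cells less apart: stellate or fibroblast-like cells had 10.7 CPM in NASH, 14.4 in NASH-T and 10.6 in Con, on 9, 11 and 6 UMIs, and macrophage-like cells had 5.13, 5.92 and 3.84 CPM.

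**Figure D4:**
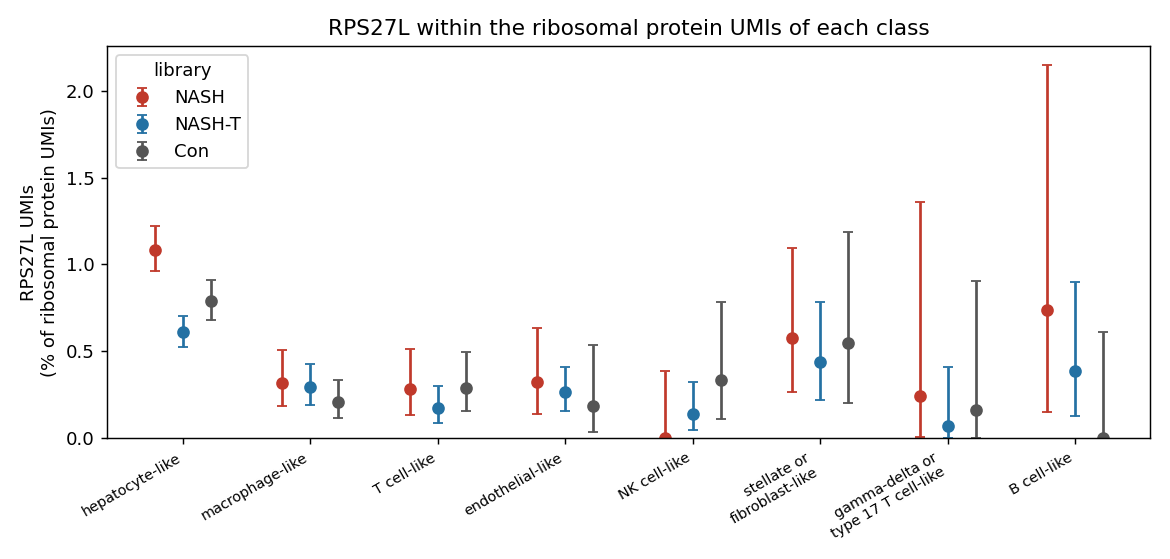
The y axis gives RPS27L as a percent of the ribosomal protein UMIs of each cell class and library, with exact 95% counting intervals, in the library order NASH, NASH-T, Con. Hepatocyte-like cells lie at 1.08%, 0.611% and 0.788%; intervals in the lymphoid classes are wide, since at most 13 UMIs of RPS27L lie behind each point there.

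Smaller tilts kept their direction in all libraries without passing that line. RPS18 made up 1.49 to 1.64 times as much of the ribosomal protein UMIs in hepatocyte-like cells as elsewhere, and RPS3 0.632 to 0.759 times as much. RPS9 stood at 1.30 to 1.39 times in macrophage-like cells. RPS7 stood at 1.37 to 1.47 times in stellate or fibroblast-like cells, where RPLP0 was at 0.608 to 0.790. RPL22, which T cell development in mice depends on, stood at 0.783 to 0.866 times in T cell-like cells, 0.709 to 0.834 times in gamma-delta or type 17 T cell-like cells and 0.741 to 0.923 times in NK cell-like cells.

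The share went down with depth by rank in every class and library, though not between all neighbouring bins. Spearman correlations over cells between UMIs per cell and the share ran from -0.50 to -0.19, while those between UMIs per cell and member UMIs ran from 0.15 to 0.59; share and depth have UMIs in common, so this is a description. Hepatocyte-like cells of 500 to under 1000 UMIs had shares of 0.360% in NASH, 0.686% in NASH-T and 0.481% in Con. Those of at least 8000 UMIs had 0.104% in NASH, 0.156% in NASH-T and 0.14% in Con. Stellate or fibroblast-like cells of NASH-T went against this at first, with 0.459% at 500 to under 1000 UMIs and 0.490% at 1000 to under 2000, and so did B cell-like cells of NASH-T, with 0.417% at 1000 to under 2000 and 0.441% at 2000 to under 4000. In hepatocyte-like cells the mean number of member UMIs per cell was larger in the deepest cells, at 13.1 in NASH, 18.5 in NASH-T and 17.7 in Con, than in the shallowest, at 2.62, 5.05 and 3.58.

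The order of the libraries held within bins of depth. NASH-T was above Con in 26 of 27 pairs of class and bin with at least 20 cells in both libraries, and above NASH in 26 of 26, while NASH was above Con in 7 of 26. With each cell thinned to 1000 UMIs, hepatocyte-like shares were 0.142% in NASH (3863 cells), 0.222% in NASH-T (2922 cells) and 0.178% in Con (2699 cells). Thinning keeps the expected share of each cell, so it weighs cells equally but does not match them by original depth. Shallower cells are left out there, 204 in NASH, 203 in NASH-T and 177 in Con.

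**Figure D5:**
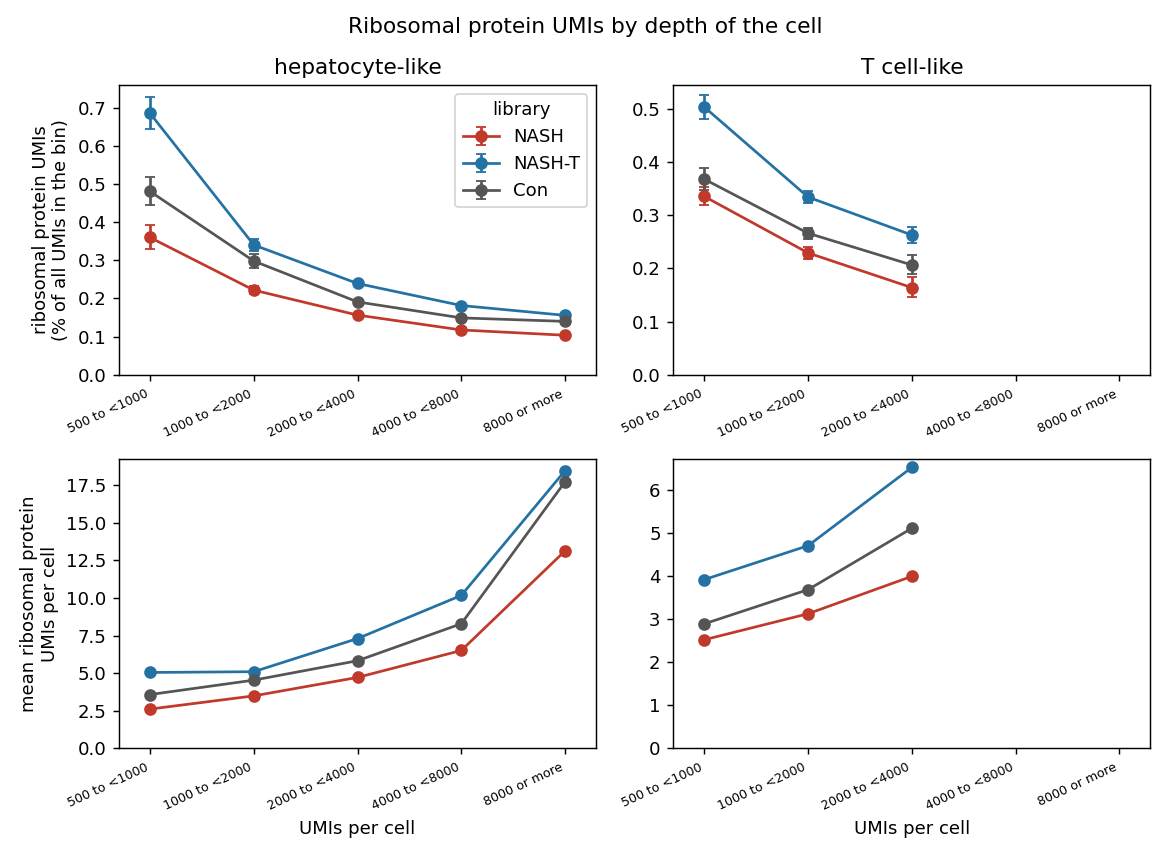
The upper panels give the ribosomal protein share of UMIs with 95% counting intervals, and the lower panels the mean ribosomal protein UMIs per cell, by bins of UMIs per cell with at least 20 cells, for hepatocyte-like (left) and T cell-like cells (right). The share is lower and the count larger in deeper bins of each library, and NASH-T lies above Con and Con above NASH in each bin drawn.

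Other measures were correlated with the share over points of class and library, but did not keep its library order within every class. Mitochondrially encoded transcripts made up 0.589% of T cell-like UMIs in NASH, 1.18% in NASH-T and 0.461% in Con. There NASH stood above Con, while its ribosomal protein share was below that of Con. In hepatocyte-like cells they made up 0.0567% in NASH, 0.0958% in NASH-T and 0.0981% in Con. There NASH-T was not above Con, while its ribosomal protein share was. Over the 24 points of 8 classes in 3 libraries the member share had a Spearman correlation of 0.81 with the mitochondrial share, and of -0.64 with the median UMIs per cell; points of a library share their preparation. The part of mitochondrial RNA or cell state in the differences of the share was not tested.

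Transcripts of 15 plasma proteins that hepatocytes secrete were found in every class. They took 1.89% of hepatocyte-like UMIs in NASH, 1.93% in NASH-T and 1.45% in Con. In the other classes they took 0.303 to 0.579% in NASH, 0.286 to 0.588% in NASH-T and 0.245 to 0.470% in Con. Per 100 UMIs of these transcripts, hepatocyte-like cells held 6.72, 10.1 and 11.1 ribosomal protein UMIs in NASH, NASH-T and Con, and T cell-like cells held 43.9, 59.3 and 59.2. On this scale NASH-T stood below Con in hepatocyte-like cells and was about level with it in T cell-like cells. NASH-T was below Con in macrophage-like cells too, which held 53.1 in NASH, 70.5 in NASH-T and 75.7 in Con. In the other 5 classes NASH-T was above Con, from 79.8 against 76.1 in B cell-like cells to 86.3 against 60.6 in stellate or fibroblast-like cells. Over the 21 points outside hepatocyte-like cells the member share had a Spearman correlation of 0.56 with the secreted share. With hepatocyte-like cells included, all 24 points gave 0.13. The part of free RNA in the differences between libraries was not tested.

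The 10 named genes outside the rule whose CPM followed the member share most closely over those 24 points, among 6660 genes compared, were mostly mitochondrial: ND1 (Spearman 0.84), CYTB, ND4L, COX2, COX1, ND4 and ND2. The others were UBB, a ubiquitin gene (0.83), BRD2, a chromatin reader (0.80), and RACK1, a protein of the small subunit that lacks an RPS name (0.83). RACK1 had 43.8 CPM over all cells in NASH, 63.7 in NASH-T and 57.5 in Con. UBB had 195, 193 and 145 CPM and BRD2 109, 167 and 169 in NASH, NASH-T and Con. These genes did not keep the library order of the share over all cells.

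The wider translation machinery of hepatocyte-like cells was read against the share of all genes called in these cells: 10.3% higher and 22.2% lower for NASH-T over Con, 11.3% higher and 25.8% lower for NASH over Con, and 14.4% higher and 13.3% lower for NASH-T over NASH. Of 10 other TOP mRNAs, 5 were higher in NASH-T than in NASH and 0 lower, with a median log2 ratio of 0.37 against -0.00 for all genes. Between NASH-T and Con 2 were higher and 1 lower, and between NASH and Con 0 were higher and 6 lower. The list holds 3 elongation factors. EEF1B2, which recharges elongation factor 1, had 16.3 CPM in NASH, 25.6 in NASH-T and 19.7 in Con. EEF1D, of the same complex, had 10.4 CPM in NASH, 17.4 in NASH-T and 16.7 in Con. EEF2, which moves the ribosome along the mRNA, differed from these, with 53.8 CPM in NASH, 54.4 in NASH-T and 65.6 in Con, and was lower than Con in both. Of all 6 elongation factors tested, 1 was higher and 3 lower between NASH-T and Con, and 0 higher and 4 lower between NASH and Con.

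Factors that start translation or build ribosomes are set beside the same shares of all genes, 10.3% higher and 22.2% lower for NASH-T over Con and 11.3% higher and 25.8% lower for NASH over Con. Of 26 initiation factors, 0 were called either way between NASH-T and Con, and 1 was higher and 4 lower between NASH and Con. The one higher in NASH was EIF5, a GTPase activator of start-site selection, at 141 CPM in NASH and 107 in Con, and the lowest was EIF4G2, at 54.6 CPM in NASH and 76.7 in Con. Of 48 ribosome biogenesis factors, 1 was higher and 5 lower in NASH-T than in Con. The higher one was PES1, of the complex that matures the large subunit, with 23.0 CPM in NASH, 31.4 in NASH-T and 12.9 in Con, so that both HRDS libraries stood above Con. RNA polymerase I and its factors had 0 higher and 2 lower of 15 between NASH-T and Con, and 0 higher and 5 lower between NASH and Con. Of 18 genes for mTORC1 and the ribosomal S6 kinases, 0 were higher and 3 lower between NASH-T and Con. Of 13 genes of ribosome stress and the integrated stress response, 0 were higher and 1 lower, EIF2AK3, an endoplasmic reticulum stress kinase, at 57.9 CPM in NASH-T and 88.8 in Con. RPL26L1, a relative of RPL26 outside the rule, had 6.29 CPM in NASH, 8.48 in NASH-T and 8.19 in Con.

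The ribosomal proteins of the mitochondrion, which are nuclear genes of a separate ribosome, had the median ratio of all genes between NASH-T and Con. Of 50 tested between NASH-T and Con in hepatocyte-like cells, 3 were higher and 4 lower, where 10.3% of genes were called higher and 22.2% lower, with a median log2 ratio of -0.10, against -0.10 for all genes. Of 52 tested between NASH and Con, 5 were higher and 2 lower, where 11.3% of genes were called higher and 25.8% lower. In both comparisons a smaller part of them was called lower than of all genes. MRPL41 was higher than Con in both, with 64.4 CPM in NASH, 53.9 in NASH-T and 40.4 in Con. Of the mitochondrially encoded transcripts, 11 of 12 were lower in NASH than in Con, with a median log2 ratio of -0.80, and 0 of 12 were called between NASH-T and Con.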

How the data were processed

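Per the labels, liver cells of 15 goats were pooled by group into 3 single-cell libraries. The deposited values are UMI counts per gene and barcode, made by the authors with Cell Ranger 7.0.0, per the submitters' processing notes; the genome build, the annotation and whether intronic reads counted were not given in the sources used here. These tables held 8731 NASH, 9375 NASH-T and 7485 Con barcodes with 31195014, 29572158 and 25506238 UMIs, and no barcode had under 500 UMIs.

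A minimum of 200 genes and 500 UMIs and a maximum of 20% mitochondrial UMIs per cell removed 0 NASH, 2 NASH-T and 1 Con barcodes. Scrublet in scanpy 1.11.5 (expected rate 0.06) removed 342, 460 and 286 doublets. Clusters came from 2000 variable genes, 30 components, 15 neighbours and Leiden at resolution 0.8, with the ribosomal protein genes taken out and no batch correction. Clusters were named from 174 markers of 17 cell types, 149 of them in the tables; these names are rebuilt and not the authors'. Mixed and unnamed clusters entered no class.

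UMIs were summed per class and library. Shares have Clopper-Pearson intervals and ratios exact conditional binomial intervals (scipy 1.17.1), all of counting error. Ratios need at least 50 UMIs over both libraries. The ratio script was tested on simulated counts. With 1 library a group there are no p-values. Named genes are the 5 members with most UMIs, those ending in L, those under 20 UMIs, the 3 largest ratios each way per main class, 2 makeup extremes each way per class, and the 10 most alike genes; other lists give up to 2 each way. Text names a selection of these, and some are not reported here. Genes, lists and rules were chosen with earlier results of these data known.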

Additional observations from a re-analysis of the deposited data

Results flagged for a closer look

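The ribosomal protein share went opposite ways between NASH and Con in different classes. In endothelial-like cells the NASH over Con ratio was 1.12, with an interval above 1, and in hepatocyte-like cells it was 0.787, with an interval below 1. The difference between these classes was not tested, since each group has 1 library, and the endothelial-like ratio turned to 0.836 when the ribosomal protein genes took part in the clustering. The endothelial-like difference was also uneven over depth. At 4000 to under 8000 UMIs the share was 0.358% in 18 NASH cells and 0.137% in 15 Con cells. At 1000 to under 2000 UMIs the NASH over Con ratio was 0.896.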

How the results depend on the processing

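The NASH-T over Con and NASH-T over NASH ratios of the share stayed above 1 in every class compared under all 12 alternatives, 3 of them chosen after seeing the data (1.02 to 2.03 and 1.17 to 1.95). With each library clustered alone, 7 classes could be compared in place of 8. The scale of member UMIs per 100 secreted UMIs is not among these alternatives. On it NASH-T was below Con in hepatocyte-like cells (10.1 against 11.1) and macrophage-like cells (70.5 against 75.7). In T cell-like cells it was about level with Con (59.3 against 59.2), and in the remaining classes above it. The hepatocyte-like NASH-T over Con ratio, 1.21, was 1.29 as a mean over cells and 1.24 thinned to 1000 UMIs. NASH-T over NASH, 1.54, was 1.65 as a mean over cells and 1.5 without the shallow cluster. NASH stood above Con in 3 of 8 classes, but in 1 at the same depth makeup and in 1 with the members in the clustering, where the endothelial-like ratio was 0.836; the cause was not tested. At 1.5-fold, 2 of 30 hepatocyte-like members were lower in NASH than in Con, where 11% of genes were called lower, and 0 were higher in NASH-T, where 4.69% were called higher. Scaling to the median ratio of all genes gave 24 members higher in NASH-T than in Con and 13 lower in NASH, in place of 17 and 19. The share of all genes called after this scaling is not given, so these counts cannot be set against all genes. No paired analysis was possible because each group has 1 library. Depth limited the smaller classes: in B cell-like cells 3 members reached 50 UMIs between NASH and Con.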

Other observations

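Immediate early genes, which are switched on within minutes of a stimulus and also during the dissociation of tissue, were higher in NASH-T over all cells: 12 of 14 tested were higher than in Con and 1 lower, where 13.2% of genes were called higher and 15.1% lower, with a median log2 ratio of 0.58 against -0.02 for all genes. FOS, a transcription factor of this group, had 91.1 CPM in NASH-T and 26.7 in Con, and DUSP1, a phosphatase of MAP kinases, had 143 in NASH-T and 57.0 in Con. FOSL2 was the lower one, at 9.70 CPM in NASH-T and 14.7 in Con. In macrophage-like cells 8 of 10 were higher in NASH-T than in Con and 0 lower, where 7.58% of genes were called higher and 11.8% lower. There FOS stood at 256 CPM in NASH-T and 50.6 in Con, a ratio of 5.06. In T cell-like cells 1 of 7 was higher in NASH-T than in Con and 1 lower, where 7.2% of genes were called higher and 7.68% lower. The higher one was KLF2, a factor of resting T cells, at 67.5 CPM in NASH-T and 32.4 in Con. The lower one was JUN, at 30.7 CPM in NASH-T and 48.6 in Con. Between NASH and Con over all cells, 1 of 14 was higher and 3 lower, where 11.3% of genes were called higher and 29.5% lower. The part of dissociation in these differences was not tested.

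Mitochondrially encoded transcripts went different ways between classes too. NASH over Con, 0 were higher and 11 lower of 12 in hepatocyte-like cells, where 11.3% of genes were called higher and 25.8% lower. In macrophage-like cells 9 of 11 were higher and 0 lower, and in NK cell-like cells 10 of 11 were higher and 0 lower, where 7.51% of genes were called higher in each class. NASH-T over Con they were higher in T cell-like cells (11 of 11, where 7.2% of genes were called higher, median log2 ratio 1.39), with 0 of 12 called in hepatocyte-like cells. The difference between classes was not tested.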
